A study of Mus musculus with 20 samples.

Results

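Adult microglia without TGF-beta signalling were set against Control microglia of the embryo, to ask which genes they share with immature cells and which fit neither embryonic nor adult Control cells. Microglia are the resident macrophages of the brain. Members are the 4 libraries of postnatal day 60 (P60) called T2MG and the 3 libraries of embryonic day 16 (E16) called Control, chosen by their labels, 7 of the 20 libraries of the series. The 4 P60 Control libraries were set beside both groups, so that the position of a gene in P60 T2MG could be read against both ages.

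Per the labels, P60 T2MG cells lacked TGF-beta signalling. P60 T2MG 4 has no such entry, and its title put it in the group. E16 Control and P60 Control carry the genotype entry Control with no allele named, and the series' description speaks of cells without 1 copy or both copies of Tgfbr2, so Control cells may lack 1 copy. No source used here names the agent that removed Tgfbr2 or the cells in which it acts. For strain, each library lists both C57Bl6 and FVB. The description counts as many animals per group as there are libraries. Cells were sorted by flow cytometry by gates that no source used here names, and poly-A RNA was amplified as full-length cDNA with an ultra low input kit. P60 T2MG and E16 Control differ in age and in genotype, so the share of each in a difference cannot be told apart from this pair alone.

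TGF-beta binds a type II receptor, the product of Tgfbr2, which activates the type I receptor Tgfbr1. The active receptor phosphorylates Smad proteins, which enter the nucleus and switch on targets that include the inhibitor Smad7. Microglia descend from yolk sac macrophages that seed the embryonic brain, and they take on their adult expression programme during the weeks after birth. TGF-beta is known as a signal that microglia need to gain and keep that programme.

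P60 T2MG libraries held 12726594 to 16216179 counts, E16 Control libraries 8109465 to 9221396 and P60 Control libraries 15129097 to 16526122. The ribosomal precursor Rn45s took 0.0293% to 0.0429% of the counts in P60 T2MG, against 0.985% to 1.3% in E16 Control, so age and library making cannot be told apart. P60 Control 1 stood apart: it lay nearer to the P15 Control libraries (root mean square difference of log2 counts-per-million, CPM, 0.87 to 0.97) than to its own group (1.28 to 1.30). P60 Control 1 also held 8874 CPM in 14 neutrophil genes, against 526 to 734 CPM in P60 Control 2 to 4, and 569 against 47.5 to 90.4 CPM in 17 lymphocyte genes. Calls and positions that rest on P60 Control are therefore also given without it, for all genes and, after the lists, for each main list. Xist, expressed in female cells, and Ddx3y, a Y-linked gene (both chosen after their values were seen), showed that P60 T2MG held both patterns, with Ddx3y at 103 and 109 CPM in T2MG 3 and 4 and at most 0.211 CPM in T2MG 1 and 2. E16 Control libraries had at most 0.101 CPM of Ddx3y and 63.5 to 131 CPM of Xist. The labels give no sex.

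Csf1r, the receptor for the growth factor that microglia live on, had 5549, 7745, 6778 and 6489 CPM in P60 T2MG and 3672, 5984 and 3315 CPM in E16 Control. Ptprc (CD45), which marks blood-derived and brain macrophages alike, had 433 to 581 CPM in P60 T2MG and 230 to 280 CPM in E16 Control. Aif1, which encodes the macrophage protein Iba1, had 258 to 366 CPM in P60 T2MG and 70.8 to 146 CPM in E16 Control. Both groups therefore carried high macrophage transcripts. Tgfbr2, the targeted gene (ENSMUSG00000032440, GRCm38 chromosome 9, 116084293 to 116175360, minus strand), had 496, 647, 452 and 541 CPM in P60 T2MG. It had 196, 293 and 202 CPM in E16 Control and 551, 605, 649 and 581 CPM in P60 Control. Tgfbr2 counts were thus higher in P60 T2MG than in E16 Control (log2 fold change 1.21, standard error SE 0.21, adjusted p 0.000172) and overlapped P60 Control (-0.16, SE 0.19, adjusted p 0.544). The table has a single value for the gene and no source used here names the deleted part, so Tgfbr2 counts say little about the genotype labels.

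P60 T2MG microglia did not take the profile of E16 Control cells as a whole. Of 15568 genes tested, 8595 (55.2%) differed between P60 T2MG and E16 Control at an adjusted p under 0.05 in edgeR's quasi-likelihood test, 4137 of them higher (26.6%) and 4458 lower (28.6%) in P60 T2MG. At least a 2-fold difference was seen for 2269 higher (14.6%) and 3301 lower genes (21.2%). All 4 P60 T2MG libraries lay above all 3 E16 Control libraries for 30.4% of genes and below them for 31.1%. The median over all genes was -0.04 on the log2 scale. Scaling by library totals in place of TMM moved that median by -0.53, to 2084 higher and 7151 lower calls (22.6% higher, against 48.1% with TMM), so small shifts of either sign depend on the scaling. Against P60 Control, 6113 genes (39.3%) differed, 3666 higher (23.5%) and 2447 lower (15.7%) in P60 T2MG, of which 2511 (16.1%) and 1154 (7.41%) by at least 2-fold. Without P60 Control 1 these were 4833 higher and 2521 lower. Both sets of calls use the same P60 T2MG libraries.

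In whole-profile distance, the 4 P60 T2MG libraries lay 1.73, 1.76, 1.79 and 1.78 from E16 Control on average (root mean square difference of log2 CPM over all genes tested). They lay 1.57, 1.57, 1.59 and 1.61 from P60 Control on average, with a mean of 1.34 to P60 Control 1 and 1.66 to P60 Control 2 to 4. Single pairs ran from 1.59 to 1.73 for P60 Control 2 to 4 and from 1.61 to 1.92 for E16 Control, so these ranges overlapped. P60 T2MG libraries were 0.61 to 0.73 apart from each other. P15 T2MG was their nearest other group (means of 1.15 to 1.31), then P15 Control (1.24 to 1.39). P60 Control and E16 Control lay 1.77 to 2.31 apart, farther than P60 T2MG lay from either on average (mean 2.02). Distances are a description with no test. E16 libraries were shallower, and the part of depth in these distances was not tested.

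**Figure D1:**
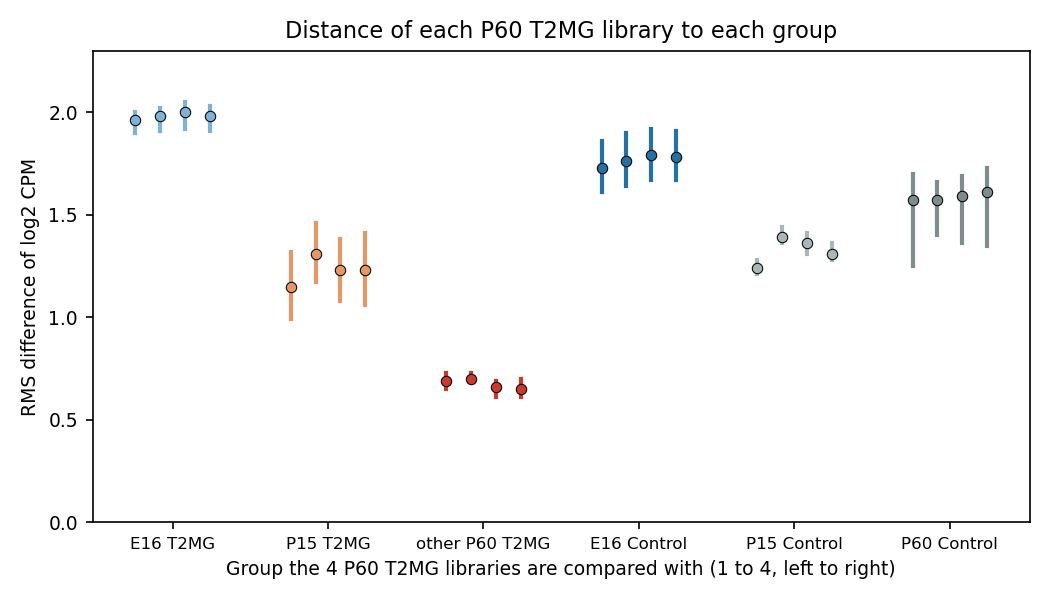
Root mean square difference of log2 CPM over all genes tested (vertical axis) between each of the 4 P60 T2MG libraries and the libraries of each group; circles are means and lines run from the lowest to the highest library pair. E16 Control (means of 1.73 to 1.79) lies farther than P60 Control (1.57 to 1.61), and the long lines at P60 Control reach down to P60 Control 1.

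Each gene was then placed by both comparisons, with 1 on the log2 scale (2-fold) as the least difference. Genes above both Control groups numbered 816 (5.24% of genes tested) and genes below both 513 (3.3%). Genes between the groups numbered 621 (3.99%), of which 566 were lower than E16 Control and higher than P60 Control. A gene was called near a group when the 95% interval of its log2 fold change lay within -1 to 1. Near E16 Control and apart from P60 Control were 410 genes (2.63%), 172 higher and 238 lower than P60 Control. Near P60 Control and apart from E16 Control were 1273 genes (8.18%). Another 3660 (23.5%) were near both, and 8275 (53.2%) could not be placed. Without P60 Control 1, 1179 genes lay above both (802 of the 816 among them), 508 below both, 948 between, 539 near embryonic and 1185 near adult. For scale, all 4 P60 T2MG libraries lay above all libraries of both Control groups for 10.7% of genes and below all for 5.93%.

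**Figure D2:**
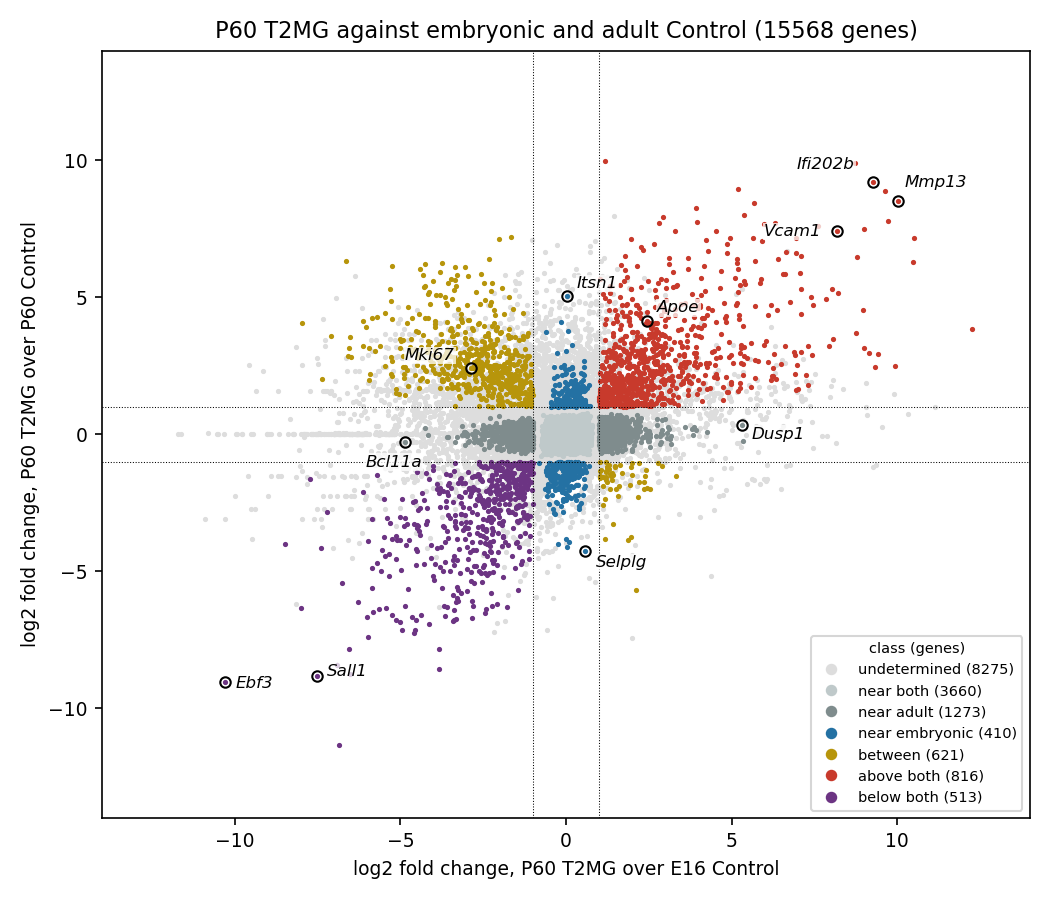
Log2 fold change of P60 T2MG over E16 Control (horizontal axis) and over P60 Control (vertical axis) for the genes tested, coloured by class, with dotted lines at -1 and 1; the axes share the P60 T2MG libraries, so the points are not independent of each other in x and y. Genes above both Control groups (816) fill the upper right and genes below both (513) the lower left, while 410 genes sit near E16 Control in the middle column; points with no counts in a group, such as Ebf3, are fitted values and no bound.

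Genes that change with age in Control cells give another view. Of 2166 genes at least 2-fold higher in P60 Control than in E16 Control, 577 (26.6%) were near adult, 189 (8.73%) near embryonic, 131 above both and 128 below both in P60 T2MG, with 55 between and 1034 not placed. Their median was 1.08 over E16 Control and -0.48 over P60 Control. Of 4168 genes lower in P60 Control, 566 (13.6%) were between, 448 (10.7%) near adult, 134 (3.21%) near embryonic and 140 above both. Their median was -1.77 over E16 Control and 1.23 over P60 Control. Leaving out P60 Control 1 gave 4723 such lower genes, with 894 between, 236 near embryonic and 273 above both. By this rule, genes near E16 Control were fewer than genes near P60 Control in each direction. This held also without that library, where 207 near embryonic stood beside 541 near adult among 2011 higher genes and 236 beside 398 among the lower ones. Nearness needs a narrow interval, and E16 Control has 3 shallower libraries against 4 of P60 Control. The part of precision in these counts was not tested. By library totals the near adult genes were 153 and 1095 in the higher and lower direction, and the near embryonic ones among the higher genes 108.

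The 12 leading genes above both Control ages, ranked by the smaller of their folds over each age, began with Ifi202b, Il10, Mrap and Mmp13. Il10, an anti-inflammatory cytokine (chromosome 1, 131019845 to 131024974), had 125, 170, 196 and 137 CPM in P60 T2MG, against 0.396, 0.202 and 0 CPM in E16 Control and 0.08 to 0.554 CPM in P60 Control. The groups were far apart, with a log2 fold change of 9.64 over E16 Control (SE 0.64, adjusted p 5.64e-10) and 8.87 over P60 Control (SE 0.42, adjusted p 1.57e-10). Mmp13, a collagenase of the matrix metalloprotease family (chromosome 9, 7272514 to 7283331), had 605, 795, 903 and 988 CPM in P60 T2MG, against 1.29, 0.405 and 0.647 CPM in E16 Control. P60 Control libraries had 7.14, 0.71, 0.29 and 0.72 CPM of Mmp13. It rose by 10.03 over E16 Control (SE 0.84, adjusted p 2.5e-07) and by 8.51 over P60 Control (SE 0.59, adjusted p 8.79e-08). Vcam1, an adhesion molecule that binds integrins of leukocytes (chromosome 3, 116109949 to 116129688), had 3436, 3650, 4978 and 4797 CPM in P60 T2MG. E16 Control had 12.4, 8.8 and 22.6 CPM of Vcam1 and P60 Control 6.72 to 63.9 CPM, with the highest value in P60 Control 1. Vcam1 rose by 8.17 over E16 Control (SE 0.58, adjusted p 4.84e-07).

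Spic, a transcription factor known from red pulp macrophages of the spleen, had 130, 114, 141 and 138 CPM in P60 T2MG, against 2.57, 1.62 and 0.808 CPM in E16 Control and 0 to 1.8 CPM in P60 Control. It rose by 6.31 over E16 Control (SE 0.57, adjusted p 4.99e-07). The lectin receptor Cd209f had 700 to 758 CPM in P60 T2MG, 0.566 to 2.93 CPM in E16 Control and 0.284 to 14.9 CPM in P60 Control. Its neighbour on chromosome 8, Cd209g, had 36 to 51.7 CPM in P60 T2MG and 0.0808 to 0.101 CPM in E16 Control. Cd55, which protects cells from complement, had 148 to 326 CPM in P60 T2MG and 0.708 to 2.51 CPM in E16 Control. Mrap, an accessory protein of melanocortin receptors, had 37.1 to 58.3 CPM in P60 T2MG. Its ratio to the 3 counts of E16 Control was 469 (95% interval 160 to 2275 from counting error alone). Retnla, a secreted protein of alternatively activated macrophages, reached the highest fitted fold, and its E16 Control libraries held 1 count in all. P60 T2MG had 133, 137, 406 and 127 CPM of Retnla and P60 Control 3.91 to 28.6 CPM. The ratio to that count of E16 Control was 6449 (95% interval 1157 to 254765 from counting error alone). With the spread between libraries, the fit gave 12.27 on the log2 scale (SE 4.53, 95% interval 2.73 to 21.81).

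The chemokines Cxcl1 and Cxcl2, which draw neutrophils, belonged to the same class. Cxcl2 had 1860, 2683, 2668 and 1825 CPM in P60 T2MG, against 1.29, 0.809 and 2.43 CPM in E16 Control, a rise of 10.51 (SE 0.83, adjusted p 7.15e-07). P60 Control had 2.63 to 47.3 CPM of Cxcl2, the highest again in P60 Control 1. Cxcl1 had 71.8, 71.8, 122 and 82.6 CPM in P60 T2MG and at most 0.97 CPM in P60 Control. Its ratio to the 3 counts of E16 Control was 937 (95% interval 321 to 4547 from counting error alone). Markers of neutrophils were a measured companion: the summed level of 14 neutrophil genes was 1241 to 2059 CPM in P60 T2MG, 324 to 1075 CPM in E16 Control and 526 to 734 CPM in P60 Control 2 to 4. Of these 14 genes, Mmp9, a gelatinase that other myeloid cells also express, was called higher and Cxcr2 lower in P60 T2MG than in E16 Control. The others were not called, so most members did not follow the sum. The list median was -0.48 over E16 Control and -2.34 over P60 Control, or 1.53 over P60 Control without P60 Control 1. The part of such cells in the chemokine levels was not tested.

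Ifi202b, an interferon-inducible gene of the DNA-sensing family on chromosome 1 (173962568 to 173982744, minus strand), had 101, 101, 97 and 109 CPM in P60 T2MG. It had 0.0808 to 0.304 CPM in E16 Control and 0.0724 to 0.284 CPM in P60 Control, with fold changes of 9.27 (SE 2.08, adjusted p 8.3e-05) and 9.20 (SE 1.63, adjusted p 2.45e-05). At P15 single libraries of both genotypes differed widely, with 0.605, 53.3 and 36.7 CPM in T2MG and 40.8, 21.1 and 0.701 CPM in Control. Basal expression of this gene is known to differ between inbred strains, and the strain entry does not tell the libraries apart, so strain and genotype cannot be told apart for Ifi202b.

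Promoters were taken from RefSeq (GRCm38.p6, the 250 bases before the start site, read on the strand of the gene). Chosen were the 3 leading genes above both and the 3 leading genes below both Control groups that have an entry. Il10 and Mrap were passed over by this rule, and Sall1 has 3 entries, of which 1 is shown. The promoters were searched on both strands for CAGAC, the core that Smad proteins bind, GAGGAAG, a form of the PU.1 motif, CACGTG, an E-box, and TGAGTCA, the AP-1 motif. The 3 promoters with a match are printed below, with matches in capitals on either strand, since they show how these letters lie before genes of each class. The promoters of Cxcl1, Ebf3 and F9 held no match in this window.
Ifi202b (chr1:173982845-173983094, minus strand, above both, 2 matches of CAGAC on the other strand): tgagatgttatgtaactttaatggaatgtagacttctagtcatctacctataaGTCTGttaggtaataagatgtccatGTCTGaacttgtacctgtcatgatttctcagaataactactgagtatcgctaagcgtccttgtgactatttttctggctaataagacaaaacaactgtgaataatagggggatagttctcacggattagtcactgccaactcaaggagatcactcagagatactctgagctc
Mmp13 (chr9:7272264-7272513, plus strand, above both, TGAGTCA on the other strand): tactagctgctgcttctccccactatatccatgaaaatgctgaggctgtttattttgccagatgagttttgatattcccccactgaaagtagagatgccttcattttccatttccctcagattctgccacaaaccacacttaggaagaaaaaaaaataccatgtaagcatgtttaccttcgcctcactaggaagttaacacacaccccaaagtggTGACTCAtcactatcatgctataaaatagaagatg
Sall1 (chr8:89044163-89044412, minus strand, below both, CAGAC on its own strand): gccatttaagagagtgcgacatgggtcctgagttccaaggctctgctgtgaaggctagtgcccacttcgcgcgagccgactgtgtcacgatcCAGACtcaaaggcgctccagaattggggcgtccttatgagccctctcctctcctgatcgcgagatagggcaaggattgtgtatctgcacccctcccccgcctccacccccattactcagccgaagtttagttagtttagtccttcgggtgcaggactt

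The AP-1 motif TGAGTCA lay in 6.55% of the promoters of genes above both (38 of 580 with an entry), 3.61% of those below both and 3.12% of all 11720 genes tested with an entry. CAGAC lay in 40.7% of promoters above both and 43.6% below both, beside 40.8% of all. GAGGAAG lay in 14.3%, 12.9% and 11.1% of these sets, and CACGTG in 6.38%, 5.41% and 8.12%. These shares are descriptions of letters in a short window and were not tested.

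Most border-associated macrophage genes, which mark macrophages of the brain's surfaces and vessels, lay above both Control ages. Of 23 tested, 15 rose and 2 fell against E16 Control (26.6% and 28.6% of all genes), with a median of 2.01, and 23 rose against P60 Control (23.5% of all genes), with a median of 4.80. Positions above both were held by 15 of the 23, among them Mrc1, Cd163, Pf4 and Ms4a7. The call of Pf4, a platelet chemokine, against E16 Control was lost without E16 Control 3 (2.08, adjusted p 0.0623). Their summed level was 65874 to 68331 CPM in P60 T2MG, 14354 to 20507 CPM in E16 Control and 3203 to 4456 CPM in P60 Control, so P60 T2MG did not overlap with either. Apoe, a lipid carrier, made up most of that sum, with 48814, 45719, 45418 and 50607 CPM in P60 T2MG, against 11184, 8634 and 6240 CPM in E16 Control and 2626 to 2818 CPM in P60 Control. Apoe rose by 2.46 over E16 Control (SE 0.21, adjusted p 3.03e-07) and 4.15 over P60 Control (SE 0.20, adjusted p 7.49e-10). Whether a few cells of another type or many cells with a moderate level carried these transcripts cannot be told apart in bulk RNA.

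The members of that list split by their embryonic level. Cd163, a haemoglobin scavenger receptor, had 963, 2568, 2801 and 768 CPM in P60 T2MG, against 19.4, 47.6 and 21.5 CPM in E16 Control, a rise of 5.91 (SE 0.70, adjusted p 3.91e-05). The mannose receptor Mrc1 had 1882, 3184, 2165 and 2490 CPM in P60 T2MG, against 964, 1012 and 905 CPM in E16 Control and 29.5 to 97.3 CPM in P60 Control. Its rise of 1.34 over E16 Control (SE 0.37, adjusted p 0.00733) lost the call under library totals (0.81, adjusted p 0.0788). F13a1, coagulation factor XIII, and the endocytic adaptor Dab2 overlapped E16 Control or came close to it: F13a1 had 1259 to 3541 CPM in P60 T2MG and 1465 to 1577 CPM in E16 Control (0.75, SE 0.82, adjusted p 0.461). Dab2 had 2067 to 2760 CPM in P60 T2MG and 1534 to 1741 CPM in E16 Control (0.59, SE 0.38, adjusted p 0.209). Both were far above P60 Control, at 4.80 and 4.78 on the log2 scale, though the interval against E16 Control was too wide to place them. Lyve1, a hyaluronan receptor, went the other way and lay between, with 33.2, 41.6, 43.4 and 19.3 CPM in P60 T2MG, against 602, 449 and 440 CPM in E16 Control and 0.923 to 15.6 CPM in P60 Control. It fell by 3.85 against E16 Control (SE 0.65, adjusted p 0.000162).

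**Figure D3:**
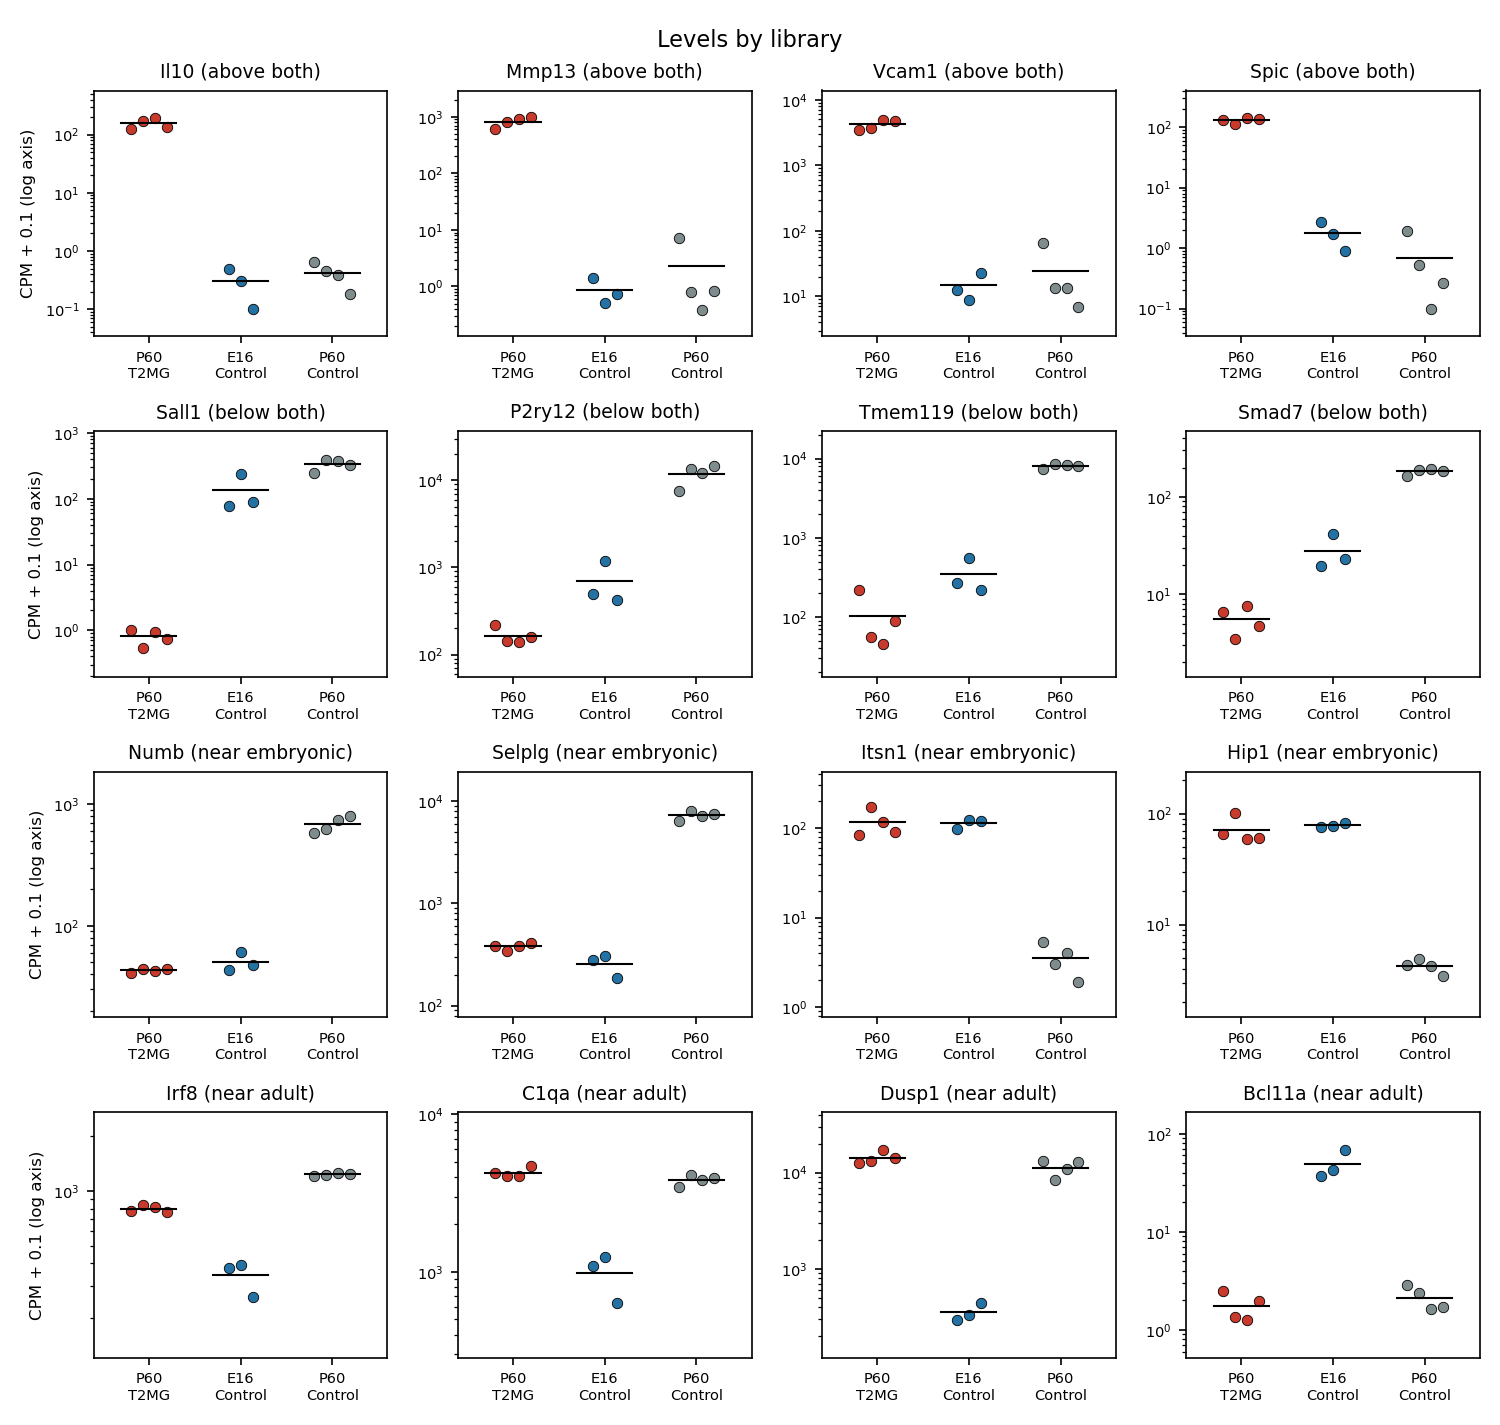
CPM plus 0.1 on a log axis in each library of P60 T2MG (4), E16 Control (3) and P60 Control (4) for 16 genes, 4 of each class by row; dots are libraries and lines are group means. Il10, Mmp13, Vcam1 and Spic lie above both Control groups in all 4 P60 T2MG libraries, Sall1, P2ry12, Tmem119 and Smad7 lie lowest there (Tmem119 with 217 CPM in T2MG 1 next to 216 CPM in E16 Control 3), and genes in the lower rows lie near E16 Control (Numb to Hip1) or near P60 Control (Irf8 to Bcl11a).

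The 12 leading genes below both Control ages included the transcription factors Ebf3, Sall1 and Sall3, the coagulation factor F9 and the Ras activator Rasgrp3. Sall1, a zinc finger factor that defines microglia (chromosome 8, 89027235 to 89044162, minus strand), had 0.916, 0.446, 0.857 and 0.647 CPM in P60 T2MG, against 78.4, 238 and 87.5 CPM in E16 Control and 242 to 385 CPM in P60 Control. Adult T2MG cells thus held less of this factor than the embryonic cells did, as Sall1 fell by 7.52 against E16 Control (SE 0.64, adjusted p 7.94e-08) and fell by 8.83 against P60 Control (SE 0.62, adjusted p 1.35e-08). Its relative Sall3 had 0.535 to 0.862 CPM in P60 T2MG, against 22.9, 74.2 and 30.3 CPM in E16 Control, and fell by 5.97 (SE 0.50, adjusted p 4.85e-08). Ebf3, an early B cell factor family member (chromosome 7, 137193673 to 137314445), had 0 counts in P60 T2MG, against 7.42, 7.59 and 21 CPM in E16 Control and 3.62 to 6.56 CPM in P60 Control. That is at least 209-fold lower than E16 Control and at least 89-fold lower than P60 Control, from a floor of 3 counts over the group. F9, coagulation factor IX on chromosome X, also had 0 counts in P60 T2MG, at least 19.8-fold lower than E16 Control (0.396 to 2.53 CPM) and at least 435-fold lower than P60 Control (11.8 to 32.3 CPM). Rasgrp3 had 1.33 to 6.69 CPM in P60 T2MG, 42.1 to 110 CPM in E16 Control and 189 to 391 CPM in P60 Control.

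Of 37 genes of the homeostatic microglia list, 9 were higher and 18 lower in P60 T2MG than in E16 Control (median -0.78), beside 26.6% and 28.6% over all genes, so the 9 are near the background. Against P60 Control 1 was higher and 35 lower (median -3.27), beside 23.5% and 15.7%. Below both lay 16 of them, near embryonic 6, with Selplg, Gas6 and Mef2c among them, between 3 and near adult 2, with Irf8 among them. P2ry12, a purinergic receptor of ramified microglia (chromosome 3, 59216272 to 59262871), had 217, 144, 140 and 157 CPM in P60 T2MG, against 495, 1199 and 422 CPM in E16 Control and 7541 to 14638 CPM in P60 Control. The groups did not overlap, and P2ry12 fell by 2.10 against E16 Control (SE 0.44, adjusted p 0.000777). Tmem119, a membrane protein of microglia (chromosome 5, 113793729 to 113800516), had 217, 55.4, 45.5 and 89.8 CPM in P60 T2MG, against 272, 562 and 216 CPM in E16 Control and 7481 to 8580 CPM in P60 Control. It fell by 1.78 against E16 Control (SE 0.54, adjusted p 0.00991), a call lost without E16 Control 2 (-1.26, adjusted p 0.0785). Olfml3, a secreted glycoprotein, had 50.1 CPM in T2MG 1 and 6.51 to 9.7 CPM in T2MG 2 to 4, against 260, 521 and 200 CPM in E16 Control, and fell by 4.15 (SE 0.68, adjusted p 0.000154). Siglech had 14 to 38.2 CPM in P60 T2MG, 118 to 366 CPM in E16 Control and 850 to 1644 CPM in P60 Control. E16 Control 2 held the highest values of P2ry12, Tmem119, Olfml3, Siglech and Sall1 among the embryonic libraries, and its summed homeostatic level was 23888 CPM, beside 14861 and 11998 CPM in E16 Control 1 and 3. In P60 T2MG the summed homeostatic level was 19211 to 20520 CPM, within the range of E16 Control. P60 Control held 109418 to 146261 CPM. The list as a sum was thus not below the embryo, unlike its median.

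Other members of the list differed from the embryo by small margins. Cx3cr1, the fractalkine receptor, had 660, 567, 558 and 560 CPM in P60 T2MG, against 1243, 1600 and 797 CPM in E16 Control. P60 T2MG lay lower without overlap, but the difference missed the threshold (-1.05, SE 0.52, adjusted p 0.0955), and was called when the 3 groups alone were fitted (-1.06, adjusted p 0.00118), by DESeq2 (-1.15, adjusted p 0.0394) and under library totals (-1.56, adjusted p 0.0165). Against P60 Control, with 4373 to 4971 CPM, Cx3cr1 fell by 3.02 (SE 0.48, adjusted p 0.000188). Csf1r showed 0.62 over E16 Control (SE 0.27, adjusted p 0.068).

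Of 34 TGF-beta pathway genes tested, 6 rose and 17 fell against E16 Control (median -0.61, beside 26.6% higher and 28.6% lower over all genes). Against P60 Control 8 rose and 16 fell (median -0.48), and the 8 are near the share of all genes higher there (23.5%, with 15.7% lower). Below both Control ages lay 8, namely Tgfbr1, Acvr2b, Smad3, Smad6, Smad7, Ski, Pmepa1 and Itgav. The type I receptor Tgfbr1 had 125, 118, 86.8 and 106 CPM in P60 T2MG, against 180, 510 and 224 CPM in E16 Control and 1427 to 1778 CPM in P60 Control, and fell by 1.48 against E16 Control (SE 0.27, adjusted p 0.00023). Smad7, the feedback inhibitor of the receptor, had 6.48, 3.39, 7.56 and 4.67 CPM in P60 T2MG, against 19.4, 41.1 and 23.1 CPM in E16 Control and 164 to 194 CPM in P60 Control. Smad7 fell by 2.33 against E16 Control (SE 0.37, adjusted p 5.82e-05). The signal transducer Smad3 had 14.9 to 25.3 CPM in P60 T2MG, 41.8 to 55.9 CPM in E16 Control and 74.4 to 93.1 CPM in P60 Control (-1.40 against E16 Control, SE 0.21, adjusted p 3.64e-05). Tgif1, a repressor of Smad targets, was near adult instead, with 102 to 122 CPM in P60 T2MG, 16 to 24 CPM in E16 Control and 109 to 157 CPM in P60 Control.

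Some genes near E16 Control were far more abundant in P60 Control. Selplg, the ligand of P-selectin (chromosome 5, 113818536 to 113832644), had 383, 342, 382 and 408 CPM in P60 T2MG, against 280, 306 and 186 CPM in E16 Control and 6296 to 8026 CPM in P60 Control. It was 0.56 higher than E16 Control (SE 0.18, 95% interval 0.17 to 0.95, adjusted p 0.0176), a call lost under library totals (0.04, adjusted p 0.828) and without E16 Control 3 (0.37, adjusted p 0.113), and -4.26 over P60 Control. Numb, an inhibitor of Notch signalling, had 41 to 44 CPM in P60 T2MG, 43.2 to 61.2 CPM in E16 Control and 574 to 799 CPM in P60 Control. The small GTPase Gem, the G protein subunit Gna15, Rilpl1 and Gpr155 lay near E16 Control too, with log2 fold changes of -3.83 to -2.85 over P60 Control.

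Other genes near E16 Control were those that adult Control cells hold at low levels. Itsn1, an endocytic scaffold (chromosome 16, 91729281 to 91920597), had 83.8, 170, 116 and 90.8 CPM in P60 T2MG, against 97.7, 122 and 120 CPM in E16 Control and 1.84 to 5.2 CPM in P60 Control. Its log2 fold change was 0.02 over E16 Control (SE 0.29, 95% interval -0.59 to 0.63) and 5.03 over P60 Control (SE 0.29, adjusted p 4.93e-09). Hip1, another endocytic protein, had 65.2, 101, 58.6 and 59.7 CPM in P60 T2MG, against 76.2, 76.6 and 82.7 CPM in E16 Control and 3.36 to 4.83 CPM in P60 Control. Hip1 was called lower than E16 Control under library totals (-0.67, adjusted p 0.00805) and without P60 T2MG 2 (-0.36, adjusted p 0.0465), against -0.14 (adjusted p 0.507) in the full fit. The transcriptional repressor Trps1, the myosin Myo5a and the membrane protein Mpzl1 were 3.78, 3.74 and 3.25 above P60 Control. Myo5a was still called lower than E16 Control (-0.62, adjusted p 0.00644). Kif23, a kinesin of cell division, had 40.4 to 46.5 CPM in P60 T2MG, 42.6 to 44.1 CPM in E16 Control and 1.78 to 12.4 CPM in P60 Control. E2f1, a cell cycle factor, had 52.3 to 62.4 CPM in P60 T2MG, 59.7 to 80.7 CPM in E16 Control and 3.62 to 13.8 CPM in P60 Control. Plin2, which coats lipid droplets, had 470 to 624 CPM in P60 T2MG, 286 to 440 CPM in E16 Control and 74.4 to 90.1 CPM in P60 Control. Plin2 was called higher than E16 Control (0.53, adjusted p 0.0211), a call lost under library totals (0.01, adjusted p 0.961), with DESeq2's size factors (0.43, adjusted p 0.0551), with the replicate block (0.50, adjusted p 0.0505), without E16 Control 3 (0.37, adjusted p 0.128) and without P60 T2MG 3 (0.45, adjusted p 0.0632). By library totals, Numb (-0.77, adjusted p 0.000286), Gna15 (-0.87, adjusted p 0.00853), Rilpl1 (-0.85, adjusted p 0.00314) and E2f1 (-0.80, adjusted p 0.0378) were called lower than E16 Control.

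Most proliferation genes lay below E16 Control and above P60 Control. Of 34 tested, 21 fell against E16 Control (median -1.28), and 27 rose against P60 Control (median 1.58). For this list and those below, the shares over all genes were 26.6% higher and 28.6% lower against E16 Control. Against P60 Control they were 23.5% higher and 15.7% lower. Between the groups lay 14 of the 34, Kif23 and Cenpa were near embryonic, and the replication helicase genes Mcm3 and Mcm7 near adult. Mki67, the marker of cycling cells, had 24.6, 20.3, 13.5 and 14.9 CPM in P60 T2MG, against 133, 156 and 113 CPM in E16 Control and 0.355 to 8.94 CPM in P60 Control. It fell by 2.87 against E16 Control (SE 0.53, adjusted p 0.00029) and rose by 2.40 over P60 Control (SE 0.54, adjusted p 0.00209). Top2a, a topoisomerase of dividing cells, had 31.3 to 50.4 CPM in P60 T2MG, 122 to 151 CPM in E16 Control and 1.92 to 17.9 CPM in P60 Control. In both genes P60 Control 1 was the highest of the adult Control libraries. The list's summed level was 1077 to 1651 CPM in P60 T2MG, 2985 to 3416 CPM in E16 Control and 375 to 1196 CPM in P60 Control.

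The early and immature microglia list, which collects genes described in embryonic and perinatal microglia, did not follow E16 Control as a group. Of 30 tested, 4 rose and 14 fell against E16 Control (median -0.39; 2 rose without E16 Control 3), and the others were not called. Against P60 Control 17 rose and 5 fell (median 1.18), and the 5 are near the 15.7% of all genes lower there. Of the 30, the desaturase Scd2 was near embryonic and 15 could not be placed. Without P60 Control 1, 4 were near embryonic and 11 could not be placed. Above both lay Lyz2, Pf4 and Ms4a7, and below both Crybb1, Csf1, Cxcr2, Ifitm10 and Igf2bp2. Cxcr2 lay at the threshold against P60 Control (adjusted p 0.0499) and lost that call under most alternatives. Lysozyme, encoded by Lyz2, had 8738, 10885, 10867 and 7506 CPM in P60 T2MG, against 2719, 1259 and 1705 CPM in E16 Control and 258 to 4338 CPM in P60 Control (2.33 over E16 Control, SE 0.61, adjusted p 0.00682). Crybb1, a crystallin of developing microglia, had 10.6, 4.55, 5.53 and 7.76 CPM in P60 T2MG, against 89.4, 131 and 50.3 CPM in E16 Control and 173 to 909 CPM in P60 Control. Fabp5, a fatty acid carrier, lay between with 13 to 20.8 CPM in P60 T2MG, 58.9 to 74.6 CPM in E16 Control and 2.7 to 11.6 CPM in P60 Control. The list's summed level was 15153 to 20700 CPM in P60 T2MG, 7510 to 10148 CPM in E16 Control and 1775 to 6240 CPM in P60 Control, and rests on its most abundant members.

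Fetal RNA-binding proteins and growth factors were lower than in E16 Control. Of 17, 1 rose (Igf1) and 16 fell (median -3.84), and 8 rose and 4 fell against P60 Control. Igf2bp1, an oncofetal RNA-binding protein, had 0.357 to 1.08 CPM in P60 T2MG, 55.1 to 72.4 CPM in E16 Control and 0 to 0.362 CPM in P60 Control. The imprinted H19 had 0.0704 to 0.287 CPM in P60 T2MG, 19.7 to 56.6 CPM in E16 Control and 0 counts in P60 Control. Igf1, a growth factor that microglia of the early postnatal brain secrete, had 179, 216, 209 and 167 CPM in P60 T2MG, against 87.1, 78.7 and 64 CPM in E16 Control and 3.52 to 8.1 CPM in P60 Control. The rise of Igf1 by 1.33 over E16 Control (SE 0.42, adjusted p 0.0148) lost its call under library totals (0.81, adjusted p 0.121) and without E16 Control 3 (1.22, adjusted p 0.0614). Neuronal transcripts moved with this list: 16 of 19 neuron genes fell, and their summed level was 62.7 to 81.7 CPM in P60 T2MG, 452, 667 and 1000 CPM in E16 Control and 16.4 to 40.7 CPM in P60 Control. Among the 12 largest falls by fold against E16 Control were Neurog2, Lhx9, Nhlh2 and Draxin, known from developing neurons, and among the 12 largest rises Gfap and Gpr37l1, known from astrocytes. Neurog2, a factor of nerve cell precursors, had 0 counts in P60 T2MG and 20, 25.7 and 46.3 CPM in E16 Control, at least 533-fold lower. Sox11, a factor of immature neurons, had 1.25 to 2.18 CPM in P60 T2MG and 164 to 362 CPM in E16 Control. The part of neuronal RNA in the falls of fetal genes was not tested.

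Genes near P60 Control lay within 2-fold of that group in adult T2MG cells. Irf8, a factor that macrophages need, had 771 to 836 CPM in P60 T2MG, 262 to 392 CPM in E16 Control and 1211 to 1260 CPM in P60 Control. Irf8 lay within 2-fold of P60 Control and was still called lower (-0.62, SE 0.13, adjusted p 0.000911). C1qa, a subunit of the complement protein C1q (chromosome 4, 136895917 to 136898803), had 4263, 4077, 4070 and 4679 CPM in P60 T2MG, against 1085, 1235 and 631 CPM in E16 Control and 3476 to 4107 CPM in P60 Control (2.12 over E16 Control, SE 0.22, adjusted p 1.7e-06). C1qb, C1qc and the integrin Itgb2 were also near adult, so that 4 of 16 complement genes were in that class, 5 above both (Cd55, C3ar1, C5ar1, C4b and Cfp) and 1 below both (Itgam). Trpm2, a calcium channel, had 66.3 to 84.7 CPM in P60 T2MG, 4.2 to 8.09 CPM in E16 Control and 57.2 to 68.7 CPM in P60 Control. Bcl11a, a factor of fetal blood progenitors and of neurons, had 1.17 to 2.39 CPM in P60 T2MG, 37, 42.5 and 68.1 CPM in E16 Control and 1.52 to 2.77 CPM in P60 Control.

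Most immediate early genes, which cells induce within minutes of a stimulus, rose against E16 Control. Of 25 tested, 22 rose (median 2.52), and against P60 Control 5 rose and 7 fell (median -0.15). The 5 are near the 23.5% of all genes higher there. In position 8 were near adult, 3 above both and 3 between, and 11 could not be placed. Dusp1, a phosphatase that ends kinase signals, had 12611, 13062, 17336 and 14098 CPM in P60 T2MG, against 294, 337 and 447 CPM in E16 Control and 8291 to 13042 CPM in P60 Control. It rose by 5.31 over E16 Control (SE 0.25, adjusted p 3.58e-09). Fos, a subunit of AP-1, had 14903 to 18186 CPM in P60 T2MG, 1024 to 1393 CPM in E16 Control and 12738 to 21135 CPM in P60 Control. Age and the handling of adult and embryonic tissue cannot be told apart here.

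Most inflammatory cytokines and chemokines rose against both E16 Control and P60 Control. Of 28 tested, 22 rose (median 3.18, or 2.78 with Il12b, which had no counts in E16 Control, at its bound), and 16 rose and 1 fell against P60 Control (median 1.73). Above both lay 14 of the 28, with Il1b, Ccl2, Ccl3 and Cxcl10 among them. The summed level was 9924 to 11747 CPM in P60 T2MG, 717 to 951 CPM in E16 Control and 2620 to 3723 CPM in P60 Control. Nfkbiz, an atypical inhibitor of NF-kappaB, had 1085, 1709, 1246 and 1183 CPM in P60 T2MG, against 48.1, 41.8 and 48.3 CPM in E16 Control and 179 to 423 CPM in P60 Control (4.82 over E16 Control, SE 0.27, adjusted p 1.4e-08). Tnfaip3, which restrains NF-kappaB, had 657 to 1090 CPM in P60 T2MG, 19.1 to 28.4 CPM in E16 Control and 160 to 298 CPM in P60 Control.

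Many antigen presentation and interferon genes were higher too. All 12 MHC class I genes tested rose against E16 Control (median 1.68). By library totals 8 rose, and without E16 Control 2 or without E16 Control 3, 10 rose. Against P60 Control, 7 rose (median 0.87). Heavy chain H2-D1 had 2553, 1664, 1688 and 2716 CPM in P60 T2MG, against 183, 106 and 106 CPM in E16 Control and 221 to 635 CPM in P60 Control (4.03 over E16 Control, SE 0.31, adjusted p 2.06e-07). Reads of near-identical MHC class I genes may be shared between members, and H2-Q6 and H2-Q7 are listed at 0 counts. The class II invariant chain Cd74 had 2394, 3326, 6428 and 2245 CPM in P60 T2MG, against 579, 192 and 461 CPM in E16 Control and 210 to 1942 CPM in P60 Control, and rose by 3.13 over E16 Control (SE 0.65, adjusted p 0.00174). Of 10 MHC class II genes, 6 rose and 1 fell against E16 Control (median 1.85). By library totals, without E16 Control 2 or without P60 T2MG 3, 4 rose. Against P60 Control 3 rose and 2 fell (median 1.28), near the shares over all genes (23.5% and 15.7%). Cd74 and H2-DMb2 lay above both, H2-Oa below both, and H2-DMa and H2-DMb1 near adult. Of 33 interferon response genes, 21 rose and 1 fell against E16 Control (median 1.17; 8 rose and 2 fell by library totals). Without E16 Control 2 or without E16 Control 3, 9 rose (medians 1.09 and 0.99). Of the 33, 30 rose against P60 Control (median 2.14), and 17 lay above both. Ifit3, an antiviral protein, had 73.4, 52.6, 62.4 and 123 CPM in P60 T2MG, against 19.9, 5.87 and 5.98 CPM in E16 Control and 8.96 to 25.5 CPM in P60 Control (2.88 over E16 Control, SE 0.57, adjusted p 0.000861). E16 Control 1 held the most interferon response RNA of its group, 2216 CPM in sum beside 866 and 1014 CPM in E16 Control 2 and 3, and without it the list median was 1.80.

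Disease-associated microglia genes, which mark microglia around damage and in ageing, rose in part. Of 30 tested, 17 rose and 6 fell against E16 Control (median 1.24), and 15 rose and 7 fell against P60 Control (median 0.77). Axl, a receptor for dying cells, had 1115, 938, 1462 and 1299 CPM in P60 T2MG, against 214, 228 and 167 CPM in E16 Control and 35.7 to 202 CPM in P60 Control (2.57 over E16 Control, SE 0.45, adjusted p 0.000338). Clec7a, a lectin that binds glucans, had 168 to 295 CPM in P60 T2MG, 44.9 to 65.3 CPM in E16 Control and 15.3 to 86.5 CPM in P60 Control. Gpnmb, a glycoprotein of lipid-laden phagocytes, fell by 3.23 against E16 Control (SE 0.65, adjusted p 0.000484), with 0.446 to 2.18 CPM in P60 T2MG, 12.9 to 14 CPM in E16 Control and 1.14 to 13.2 CPM in P60 Control. Spp1, osteopontin, fell by 2.05 against E16 Control (SE 0.45, adjusted p 0.00109), and Itgax, an integrin of that state, had 5.75 to 17.6 CPM in P60 T2MG and 7.62 to 12.8 CPM in E16 Control (0.19, SE 0.36, adjusted p 0.675). Of 35 lysosome genes, 25 rose and 2 fell against E16 Control (median 0.98; 17 and 3 by library totals). The protease gene Ctsh had 1501 to 2084 CPM in P60 T2MG, 183 to 292 CPM in E16 Control and 704 to 1258 CPM in P60 Control.

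In the metabolic lists more genes fell than rose against E16 Control. Of 27 sterol and fatty acid synthesis genes, 4 rose and 13 fell (median -0.57; 2 rose without E16 Control 1), and of 18 glycolysis genes 2 rose and 9 fell (median -0.49). Slc16a3, a lactate exporter, had 13.6 to 17.5 CPM in P60 T2MG, 95.1 to 115 CPM in E16 Control and 37.9 to 81 CPM in P60 Control (-2.80 against E16 Control, SE 0.21, adjusted p 3.68e-08). The glucose transporter Slc2a1 had 16.8 to 28.9 CPM in P60 T2MG, 64.5 to 76.2 CPM in E16 Control and 89.3 to 106 CPM in P60 Control. Srebf1, which drives fatty acid synthesis, rose by 1.02 over E16 Control (SE 0.11, adjusted p 1.38e-06), with 191 to 225 CPM in P60 T2MG and 98.4 to 109 CPM in E16 Control. Of 24 matrix genes, 6 rose and 13 fell against E16 Control (median -1.55), and the 6 are near the 26.6% of all genes higher there. Sparc, a matrix glycoprotein that microglia express, had 149, 61, 94.2 and 83.6 CPM in P60 T2MG, against 514, 1084 and 509 CPM in E16 Control and 3573 to 8510 CPM in P60 Control.

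Leaving out P60 Control 1 raised the share of all genes called higher than P60 Control to 31.1%, with 16.2% lower, and the 2-fold counts were 3638 higher and 1144 lower. All 23 border-associated macrophage genes were still higher (median 5.74) with 15 above both, and homeostatic genes still had 1 higher and 35 lower (median -3.37) with 16 below both. Proliferation genes had 32 of 34 higher (median 2.80) with 19 between, and early microglia genes 22 higher and 4 lower (median 2.19). All 33 interferon response genes were higher (median 2.45) with 17 above both, and 20 inflammatory genes were higher and 1 lower (median 1.98) with 17 above both. MHC class I genes had 11 of 12 higher (median 1.13), disease-associated genes 16 higher and 7 lower (median 0.85), and TGF-beta pathway genes 9 higher and 16 lower (median -0.54) with 8 below both. MHC class II genes had 6 of 10 higher and 2 lower (median 2.22). Fetal genes had 8 higher and 3 lower, and immediate early genes 5 higher and 7 lower with 7 near adult. Lymphocyte genes had 17 of 17 higher without that library, against 1 with it, and choroid plexus genes 10 of 10, against 4.

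**Figure D4:**
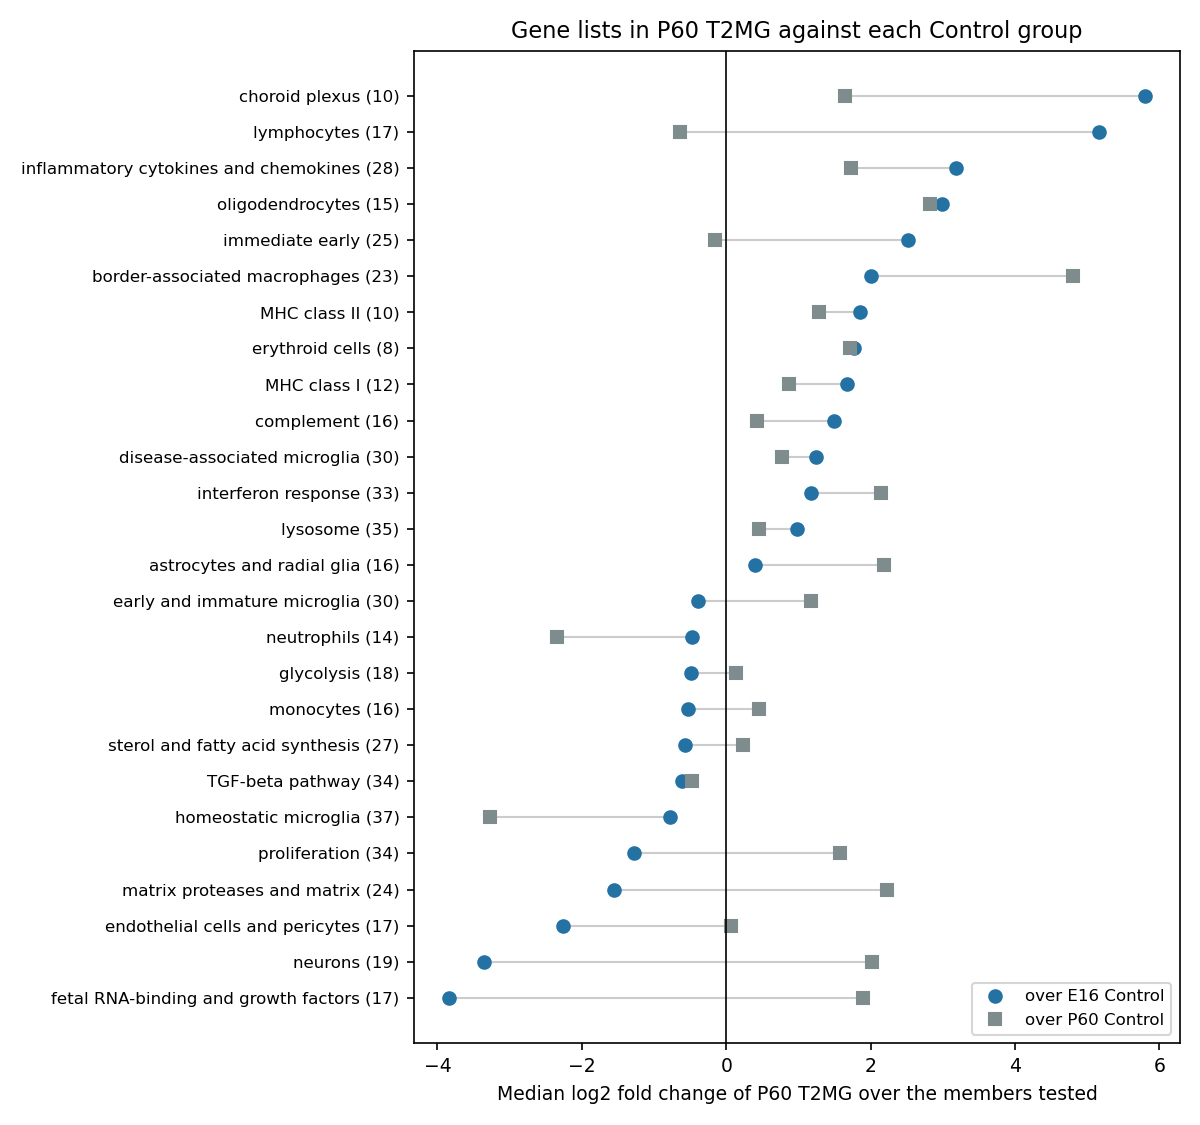
Median log2 fold change of P60 T2MG over E16 Control (circles) and over P60 Control (squares) for each of 26 gene lists, with the number of members tested in brackets; both values share the P60 T2MG libraries. Border-associated macrophage (2.01 and 4.80) and inflammatory genes (3.18 and 1.73) lie above 0 against both ages, homeostatic genes (-0.78 and -3.27) below 0 against both, and proliferation genes (-1.28 and 1.58) on opposite sides.

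Markers of other cell types differed between the groups and bear on the lists above. Choroid plexus genes summed to 3874 to 7279 CPM in P60 T2MG, 37.9 to 148 CPM in E16 Control and 340 to 4289 CPM in P60 Control, and 9 of 10 rose against E16 Control. P15 Control held more than P60 T2MG, 9553 to 18353 CPM, and P15 T2MG held 1349 to 4457 CPM. Ttr, a carrier that choroid plexus makes, had 2911, 1886, 2824 and 3084 CPM in P60 T2MG, against 22.3, 3.14 and 78.9 CPM in E16 Control. Oligodendrocyte genes summed to 1008 to 1866 CPM in P60 T2MG, 143 to 186 CPM in E16 Control and 304 to 397 CPM in P60 Control, with 10 of 15 higher than in E16 Control. Lymphocyte genes summed to 514 to 551 CPM in P60 T2MG and 50.3 to 77.9 CPM in E16 Control, where 4 of the 17 (Cd3e, Cd8b1, Gzma and Ncr1) were at 0, and 10 rose. Cd4, which some macrophages also express, made 300, 419, 356 and 339 CPM of that sum in P60 T2MG and 9.5, 12.4 and 7.76 CPM in E16 Control. Monocyte genes summed to 823 to 1036 CPM in P60 T2MG and 519 to 982 CPM in E16 Control, with 4 of 16 higher and 5 lower, near the shares over all genes (26.6% and 28.6%). Without E16 Control 1, 1 monocyte gene was lower, without P60 T2MG 3, 2 were, and without E16 Control 3, P60 T2MG 1 or P60 T2MG 4, 3 were. Astrocyte and radial glia genes summed to 325 to 558 CPM in P60 T2MG and 541 to 792 CPM in E16 Control, with 6 of 16 higher and 5 lower. Endothelial and pericyte genes fell in 11 of 17 and rose in 1, and 5 fell without E16 Control 3. Of 8 erythroid genes tested, 4 rose and 3 fell, and 2 rose without P60 T2MG 1, E16 Control 1 or E16 Control 3. Erythroid genes summed to 576 CPM in P60 T2MG 1 and 134 to 240 CPM in P60 T2MG 2 to 4, against 167 to 212 CPM in E16 Control. The globin genes Hba-a1, Hba-a2, Hbb-bs and Hbb-bt are listed at 0 counts in both groups, so these sums do not measure them. The embryonic globin Hbb-y had 0.0718 to 0.352 CPM in P60 T2MG and 111 to 147 CPM in E16 Control. The part of these cells in the differences between P60 T2MG and E16 Control was not tested.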

How the data were processed

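The table that the authors deposited gives raw counts per gene symbol for each library. The submitters' processing notes list TopHat2 (0.7), Cufflinks (2.2.1) and the build mm10, and no source used here names the counting tool, its annotation or its use of strand. Dates stood in place of a symbol in 27 of 24421 entries (0.122% to 0.256% of counts), which were left out. In R 4.3.3, edgeR 4.0.16 kept 15568 of 24394 genes by its expression filter, scaled libraries by TMM, and fitted group means over 20 libraries in 6 groups (quasi-likelihood F test, Benjamini-Hochberg over all genes). Log2 fold changes carry standard errors and 95% intervals from the quasi-dispersion. CPM use TMM-scaled totals. The common dispersion was 0.107 (biological coefficient of variation 0.327). Replicate pairs differed by chi-squares of 5.45 to 163 per gene, and each library counted as 1 replicate. Intervals of ratios to a few counts, and floors, cover counting error at most and leave out the spread between libraries. Amplified reads are also not independent molecules. Gene positions are from GENCODE M21 (GRCm38), where 23350 symbols matched. Scripts were tested on simulated data.

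Named were the 12 highest and 12 lowest folds against E16 Control among called genes without overlap and with a mean of at least 10 CPM, the 12 leading genes above both and below both Control groups, the leading genes near each age, up to 4 members of each of 26 lists, and a fixed set of genes. List members outside these rules are named by class only, all class members or a few chosen after their values were seen. Some genes that meet these rules are not reported here. Members and lists were chosen with earlier results of these data known. Alternatives were DESeq2 1.42.0, limma 3.58.1 (voom), other scalings, filters and fold minimums, and leaving out 1 library. Left out in turn were the 11 libraries of P60 T2MG, E16 Control and P60 Control, and no library of the other groups.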

Additional observations from a re-analysis of the deposited data

Results flagged for a closer look

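In groups of 4 libraries a value was flagged when its gap to the nearest other library took more of the group's range than Dixon's 95% limit allows. Chance flags about 1 in 20 groups. Of 101 named genes, 6 were flagged in P60 T2MG and 18 in P60 Control, and 16 of these 18 were values of P60 Control 1. E16 Control has 3 libraries and was not tested.

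In P60 T2MG, Retnla was highest in T2MG 3 with 406 CPM and Smad3 in T2MG 2 with 25.3 CPM. T2MG 1 held the highest Cx3cr1, 660 CPM, and the lowest Gpr155, 37.4 CPM. Hbb-y reached 0.352 CPM in T2MG 1 and Draxin 0.144 CPM in T2MG 4, both at a few counts.

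P60 Control 1 was the highest of its group in genes of the border-associated macrophage list, with Cd163 at 40.3 CPM, Ms4a7 at 31.7 CPM and Cd209f at 14.9 CPM. The library also led in Cd209g with 1.87 CPM and Axl with 202 CPM. So it did in Cd4 of the lymphocyte list with 17 CPM and Mmp9 of the neutrophil list with 166 CPM. It was highest too in Ctsh with 1258 CPM, Gfap with 6.1 CPM, Cd55 with 5.47 CPM and Mrap with 0.139 CPM. It was the lowest in Crybb1 with 173 CPM, Rasgrp3 with 189 CPM, Gpr155 with 222 CPM, Itgam with 713 CPM and Csf1r with 9363 CPM. P60 Control 3 was highest in Igf2bp1 with 0.362 CPM and Hbb-y with 0.0724 CPM. The part of other cells in P60 Control 1 was not tested.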

How the results depend on the processing

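Genes called against E16 Control ranged from 7163 to 9229 when 1 library was left out, against P60 Control from 5199 to 7354, and between the Control ages from 8218 to 9793. Leaving out 1 library moved genes above both between 703 and 1179, below both between 445 and 516, between the groups from 473 to 948, near embryonic from 338 to 539 and near adult from 1112 to 1400. Among genes lower in P60 Control than in E16 Control, those above both ranged from 94 to 273, between from 427 to 894 and near embryonic from 100 to 236, each highest without P60 Control 1. By library totals, 74 genes higher in P60 Control were above both, 21 between, 108 near embryonic and 153 near adult, and of the lower ones 120 were below both and 1095 near adult. A fold minimum of 0.5 on the log2 scale gave 1367 genes above both, 814 below both, 1012 between, 264 near embryonic and 464 near both, and 1.5 gave 6445 near both.

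Mean distances of P60 T2MG were, with a prior count of 0.5, 2.08 to E16 Control, 1.89 to P60 Control, 1.52 to P15 T2MG, 1.56 to P15 Control and 2.29 to E16 T2MG. With a prior count of 5 they were 1.55, 1.39, 1.06, 1.18 and 1.76 in that order. Over genes that average 10 CPM or more they were 1.51 to E16 Control, 1.46 to P60 Control, 0.97 to P15 T2MG, 1.17 to P15 Control and 1.62 to E16 T2MG.

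By library totals, which moved the median of all genes by -0.53, list medians over E16 Control were -1.30 for homeostatic, -0.91 for early, -1.81 for proliferation, -1.15 for TGF-beta, -2.08 for matrix, -1.10 for sterol, -1.01 for glycolysis, -4.37 for fetal, -1.04 for monocyte, -3.90 for neuron and -2.78 for endothelial genes. They were 0.73 for disease-associated, 1.49 for border-associated, 1.32 for MHC class II, 1.16 for MHC class I, 0.66 for interferon, 2.64 for inflammatory, 0.97 for complement, 0.46 for lysosome and 1.99 for immediate early genes. The astrocyte median changed sign, at -0.15 against 0.40 with TMM. Other moves were inflammatory genes at 2.78 by limma voom, glycolysis at -0.60 by DESeq2 and at -0.60 with its size factors in edgeR, and erythroid genes at 2.76 with the 3 groups alone. With 1 library left out, medians ranged from 1.83 to 2.40 for border-associated, 1.53 to 1.94 for MHC class I, 0.99 to 1.80 for interferon, 2.83 to 3.48 for inflammatory, -1.73 to -1.22 for matrix, -0.58 to -0.42 for glycolysis, -4.24 to -3.20 for fetal, -0.87 to 0.02 for monocyte and 0.09 to 0.96 for astrocyte genes. The causes were not tested.

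Replicate numbers did not pair the libraries (correlations of deviations of 0.06, 0.16 and -0.00 between P60 T2MG and E16 Control). With the replicate block 8235 genes were called against E16 Control, 6185 against P60 Control and 9135 between the Control ages. Of 202 results for named genes, 12 lost a call under at least 1 alternative and 0 changed sign after a call. E16 Control has 3 shallower libraries, which limits what low genes can show.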
